A study of Homo sapiens with 8 samples.

Results

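KAT14 and its relatives are enzymes that place acetyl groups on histones. The set holds 10 genes listed by name (KAT14, KAT2A, KAT2B, KAT5, KAT6A, KAT6B, KAT7, KAT8, EP300 and CREBBP), of which 9 were among the 19046 genes measured on every array of the study. KAT6A had no matched probe and is not analysed here. KAT14 was chosen by its measured log2 ratio to control at the top doses, the lowest of the detected genes, so its values are given as a description with no test, and the other genes were listed as its family.

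A549 cells, a human lung adenocarcinoma line, were exposed to EEDS, an ethanol extract of Descurainia sophia seeds, at 1.25, 5 and 20 ug/mL, or to helveticoside, a cardiac glycoside found in that extract, at 3.75, 15 and 60 nM. Each agent had its own vehicle control, which gave 8 one-colour arrays in all, 4 in each series. Per the labels, cells were exposed for 48 h and RNA of triplicate cultures was pooled, so that each dose is 1 array and no dose has a replicate; the study's methods give a shorter exposure for the RNA. Agent and series cannot be told apart, because each agent was run only beside its own control.

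Histone acetyltransferases transfer an acetyl group from acetyl-CoA to lysines of histone tails, a mark of active promoters and enhancers. Most work inside large complexes: KAT14 and either KAT2A or KAT2B are the enzymes of ATAC, KAT2A or KAT2B also serves SAGA, KAT5 drives NuA4/TIP60, KAT6A, KAT6B and KAT7 work with BRPF and ING subunits, and KAT8 works in the MSL and NSL complexes. EP300 and CREBBP are large coactivators that bind many transcription factors.

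The sequences just before the start sites are shown for the members whose levels moved most clearly with dose, namely KAT14 and KAT2A at the low end and KAT2B and KAT5 at the high end. Each is the 250 bases before an annotated start, written 5′ to 3′ on the gene's strand, from RefSeq (GRCh38.p14): KAT14 at chr20:18137297-18137546 (+), KAT2A at chr17:42121368-42121617 (-), KAT2B at chr3:20040196-20040445 (+) and KAT5 at chr11:65712002-65712251 (+). Capitals mark exact matches, on either strand, to the E-box, spelled CACGTG. They also mark the GC box, spelled GGGCGG, and the box named after its letters CCAAT. The remaining motifs sought were the short form of the CRE, spelled TGACGT, the ETS site, spelled CCGGAAG, and the TATA box, spelled TATAAA.
KAT14: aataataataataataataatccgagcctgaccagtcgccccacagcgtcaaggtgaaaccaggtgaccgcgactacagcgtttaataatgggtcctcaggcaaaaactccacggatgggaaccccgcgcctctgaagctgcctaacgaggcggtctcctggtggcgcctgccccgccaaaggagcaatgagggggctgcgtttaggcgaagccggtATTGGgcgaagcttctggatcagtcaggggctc
KAT2A: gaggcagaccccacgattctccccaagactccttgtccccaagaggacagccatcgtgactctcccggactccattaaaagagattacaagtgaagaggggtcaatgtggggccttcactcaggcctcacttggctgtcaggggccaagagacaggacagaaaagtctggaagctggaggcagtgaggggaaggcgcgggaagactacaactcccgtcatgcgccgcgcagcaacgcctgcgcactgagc
KAT2B: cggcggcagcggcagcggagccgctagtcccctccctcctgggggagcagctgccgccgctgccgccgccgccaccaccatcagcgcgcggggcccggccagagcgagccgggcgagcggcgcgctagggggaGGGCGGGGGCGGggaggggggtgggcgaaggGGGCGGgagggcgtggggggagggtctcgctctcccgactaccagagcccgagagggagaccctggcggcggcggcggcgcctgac
KAT5: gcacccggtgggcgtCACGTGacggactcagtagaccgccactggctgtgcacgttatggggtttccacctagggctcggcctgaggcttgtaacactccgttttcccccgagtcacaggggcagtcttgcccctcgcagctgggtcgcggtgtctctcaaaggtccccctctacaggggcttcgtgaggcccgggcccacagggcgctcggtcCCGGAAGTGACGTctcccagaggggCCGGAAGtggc
The KAT14 window held 1 CCAAT match, which 32.0% of all 35116 such windows hold. The KAT2A window held none of the 6 motifs. The KAT2B window held 3 GC boxes, a motif found in 42.6% of windows, and the KAT5 window held 1 E-box (6.34% of windows), 1 short CRE (7.10%) and 2 ETS sites (8.52%), the short CRE abutting one of the ETS sites. KAT14 has 4 annotated start windows, and the one at chr20:18137821-18138070 held 1 E-box and 2 overlapping GC boxes instead. That window overlaps a start window of another gene, PET117. A further KAT14 window, at chr20:18137613-18137862, is also a start window of PET117 and held none of the 6 motifs. These matches are letters in a window and were not tested as binding sites.

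On the arrays, 54.5% to 65.0% of probes were well above background by the scanner software's own call, the median scanned intensity was 182 to 278 over a median local background of 27 to 34, and no probe spot was saturated. Probes spotted at least 5 times on an array had a median SD of 0.0687 to 0.0852 on the log2 scale, which is the technical spread within an array and says nothing of the spread between cultures. All 9 epithelial and A549 markers (KRT8, KRT18, KRT19, EPCAM, CDH1, AKR1B10, AKR1C1, ALDH1A1 and NQO1) were well above background on all 8 arrays. Of 8 markers of other cell types, CD3E, PECAM1 and PDGFRB were not well above background on any array, VWF and MYH11 were so on 3, and PTPRC, CD14 and DES on all 8. Of the other-type markers, limma called 0 for either agent (1 had an unadjusted p under 0.05 with each), though CD14 had top-dose log2 ratios of -1.57 and -2.28. Of the 9 epithelial markers it called 4 with EEDS and 3 with helveticoside, where 15.1% and 11.3% of all genes were called. KRT18, KRT19 and CDH1 fell with both agents and KRT8 with EEDS, while EPCAM stood at 0.05 and -0.26. The part of these markers in the results below was not tested. In such bulk RNA, fewer cells expressing a gene and less RNA per cell cannot be told apart.

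KAT14 RNA was lower at every dose of both agents. The processed intensity of its single probe, with the scanner's own error, was 2920 ± 293 in the EEDS control, 1590 ± 159 at 1.25 ug/mL, 442 ± 44.5 at 5 ug/mL and 42.0 ± 7.00 at 20 ug/mL. In the helveticoside series it was 2410 ± 241 in the control, 738 ± 74.6 at 3.75 nM, 444 ± 45.1 at 15 nM and 81.7 ± 13 at 60 nM. Both controls stood above every treated array and each dose lay below the one before it. The spot was well above background on all 8 arrays, although at 20 ug/mL the signal as scanned was only 95.5 over a local background of 26.5.

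**Figure D1:**
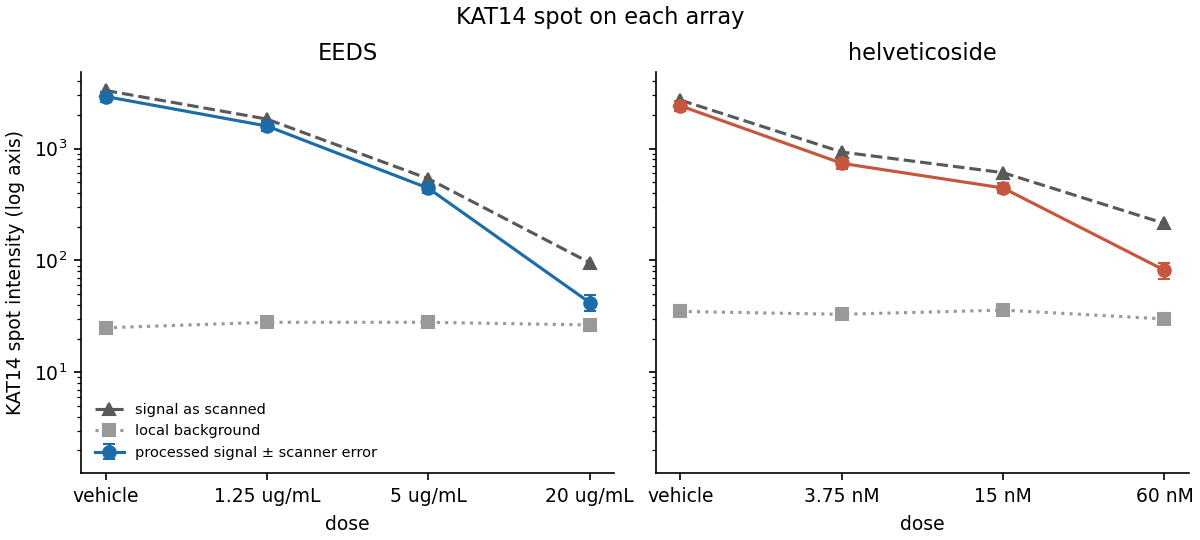
KAT14 spot intensity on each array, on a log axis, against dose of EEDS (left) and helveticoside (right), 1 array per point. Circles are the processed signal with the scanner's error, triangles the signal as scanned and squares the local background. The processed signal drops from 2920 to 42.0 with EEDS and from 2410 to 81.7 with helveticoside, and the scanned signal stays above the background throughout.

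After quantile normalization over the 8 arrays, the log2 level of KAT14 was 11.71, 10.34, 8.67 and 5.41 from the EEDS control to 20 ug/mL. It was 11.52, 10.09, 9.10 and 6.34 from the helveticoside control to 60 nM. The level was thus 2.59-fold, 8.21-fold and 78.7-fold below control over the EEDS doses, and 2.69-fold, 5.35-fold and 36.1-fold below control over the helveticoside doses. What remained at the top doses was 1.27% of control with EEDS and 2.77% with helveticoside. The controls of the series differed by -0.20 on the log2 scale, far less than any of these steps.

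The steps were not even: the log2 level changed by -1.37, -1.67 and -3.26 from dose to dose of EEDS and by -1.43, -0.99 and -2.75 from dose to dose of helveticoside, so that the last step was the deepest in both series. At the top doses KAT14 ranked first from the bottom among 12988 genes (EEDS) and 11961 genes (helveticoside) that were well above background on that array and its control. The next genes in that order were HLA-DMB (log2 ratio -5.92) and SCARA5 (-5.59) with EEDS, and CLDN2 (-5.14) and GPRIN2 (-4.71) with helveticoside. CLDN2 was thus close to KAT14, which was at -5.18 with helveticoside, and ranks were taken on this scale alone. The depth of the top-dose value depends on how background is handled, since the spot is then dim: with the signal as scanned the log2 ratio was -4.84 with EEDS and -4.27 with helveticoside, against -6.30 and -5.18 from the processed signal, and the authors' own processed values gave -6.16 and -3.90.

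The relatives of KAT14 moved far less, and mostly the other way. Of the 8 measured relatives, limma's trend test called 4 with EEDS, 3 rising and 1 falling, where 15.1% of all genes were called (7.27% rising and 7.85% falling). With helveticoside it called 3, 2 rising and 1 falling, where 11.3% of all genes were called (5.48% rising and 5.80% falling). These shares are over all 19046 genes, of which 11516 were well above background on all 8 arrays, as every relative was. The genes called with helveticoside, KAT2A, KAT2B and KAT5, were also called with EEDS and in the same direction. The trend is the slope of the log2 level per dose step, fitted over all 8 arrays with a Benjamini-Hochberg adjusted p under 0.05 as the call. The calls need the arrays of all doses together: when the lowest, the middle or the top dose of each series was left out, limma called 0 of the 8 relatives and 0 of all genes in either series, although 3 to 6 relatives had an unadjusted p under 0.05. They also depend on the dose scale: with dose entered as a share of the top dose instead of as steps, EP300 with EEDS was the only relative called (limma, adjusted p = 0.0237). On that scale limma called 2164 of the 19046 genes with EEDS and 788 with helveticoside. KAT2A (limma, adjusted p = 0.0624 with EEDS and 0.0649 with helveticoside), KAT2B (0.217 and 0.161) and KAT5 (0.161 and 0.204) then missed the threshold.

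KAT2A (GCN5), the catalytic partner of KAT14 in ATAC, was the only relative whose fall was called. Its log2 level was 12.30, 11.81, 10.91 and 10.12 over the EEDS series and 12.25, 12.08, 10.98 and 9.89 over the helveticoside series, each dose below the one before. At the top doses it was 4.52-fold below control with EEDS and 5.13-fold with helveticoside. Its slope per dose step was -0.74 ± 0.11 (SE) with EEDS (limma, adjusted p = 0.0184) and -0.82 ± 0.11 with helveticoside (limma, adjusted p = 0.0198). At the top dose 3.05% of the ranked genes stood lower than KAT2A with EEDS and 1.56% with helveticoside.

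KAT2B (PCAF), the close homologue that can take the place of KAT2A in both ATAC and SAGA, rose. Its log2 level was 8.53, 9.18, 9.40 and 9.69 over the EEDS series and 8.23, 8.26, 8.95 and 9.34 over the helveticoside series. The top doses were 2.23-fold and 2.16-fold above their controls, and every treated array stood above its own control after normalization. At 3.75 nM helveticoside that log2 ratio was only 0.02, and before normalization the processed signal was 226 against 307 in the control. The slopes were 0.37 ± 0.08 with EEDS (limma, adjusted p = 0.0390) and 0.40 ± 0.08 with helveticoside (limma, adjusted p = 0.0389). The call with EEDS held under all 8 other ways of processing the same arrays with dose as steps, with limma adjusted p of 0.0229 to 0.0391, and that with helveticoside under 6 of them, with 0.0216 to 0.110.

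KAT5 (TIP60), the enzyme of the NuA4/TIP60 complex known for its part in DNA repair, rose as well. Its log2 level was 9.37, 9.62, 9.85 and 10.23 over the EEDS series and 8.46, 8.78, 9.22 and 9.35 over the helveticoside series. The slopes were 0.28 ± 0.05 with EEDS (limma, adjusted p = 0.0279) and 0.31 ± 0.05 with helveticoside (limma, adjusted p = 0.0279), or 1.82-fold and 1.85-fold at the top doses. The controls themselves differed by -0.90 on the log2 scale, about as much as either rise, so that the level at 60 nM was near that of the EEDS control. The call with helveticoside held under 4 of the 8 other ways of processing with dose as steps (limma adjusted p of 0.0266 to 0.114), and that with EEDS under all 8 (0.0228 to 0.0402). Averaging over probes and the other filters left the values of KAT5, a gene with 1 probe, unchanged. Of the settings that changed them, only quantile normalization within series kept the call with helveticoside.

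EP300 rose with EEDS, while with helveticoside it missed the threshold. Its log2 level was 9.20, 9.21, 9.62 and 10.36 over the EEDS series and 8.51, 8.84, 9.0 and 9.61 over the helveticoside series. The slope was 0.39 ± 0.09 with EEDS (limma, adjusted p = 0.0431) and 0.35 ± 0.09 with helveticoside (limma, adjusted p = 0.0672). The top doses were 2.25-fold and 2.14-fold above their controls, and the controls differed by -0.68. The 95% interval of the difference between the slopes was -0.27 to 0.36, so an effect on EP300 that differed between the agents was not shown.

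**Figure D2:**
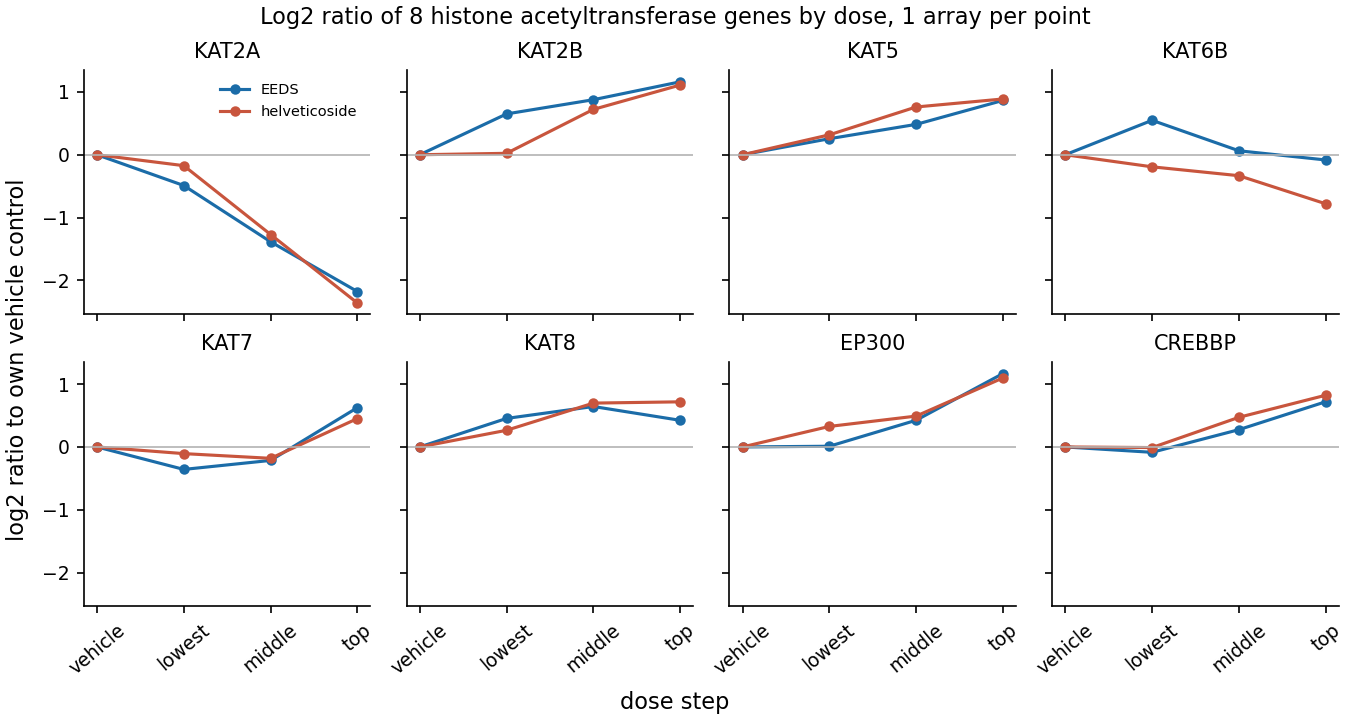
Log2 ratio to the vehicle control of the same series (vertical axis) for 8 relatives of KAT14 at the lowest, middle and top dose of EEDS and helveticoside, 1 array per point. KAT2A reaches -2.18 with EEDS and -2.36 with helveticoside, KAT2B, KAT5 and EP300 end above 0 in both series, KAT7 ends above 0 after lower values, and KAT6B goes down step by step with helveticoside but not with EEDS.

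The other relatives did not pass the trend test for either agent. CREBBP, the paralogue of EP300, had log2 ratios of 0.72 and 0.82 at the top doses (limma, adjusted p = 0.0883 with EEDS and 0.0715 with helveticoside). KAT8, which acetylates histone H4, had 0.42 and 0.72 (limma, adjusted p = 0.279 and 0.102). KAT7 (HBO1) lay below its control at the lower doses of both agents and above it only at the top, where its log2 ratio was 0.63 with EEDS and 0.45 with helveticoside (limma, adjusted p = 0.408 and 0.674). KAT6B (MORF) had log2 ratios of -0.08 and -0.78 from its brighter probe (limma, adjusted p = 0.760 and 0.192), and its second probe was not well above background on any helveticoside array.

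At the top doses 1 of the 8 relatives was at least 2-fold below control with either agent, where 14.5% of all genes were with EEDS and 12.8% with helveticoside. At least 2-fold above control were 2 relatives with either agent, where 13.3% and 10.8% of all genes were. The median log2 ratio of the relatives was 0.67 with EEDS and 0.77 with helveticoside, and that of all genes 0.02 and -0.00. Of the 8 relatives, 0 had a slope called different between the agents by limma, where 0.00% of all genes were called and 2.76% had an unadjusted p under 0.05; among the relatives 0 had one. The 95% interval of the slope difference was -0.31 to 0.46 for KAT2A, -0.32 to 0.26 for KAT2B and -0.22 to 0.16 for KAT5, so differences of that size per dose step remain possible.

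**Figure D3:**
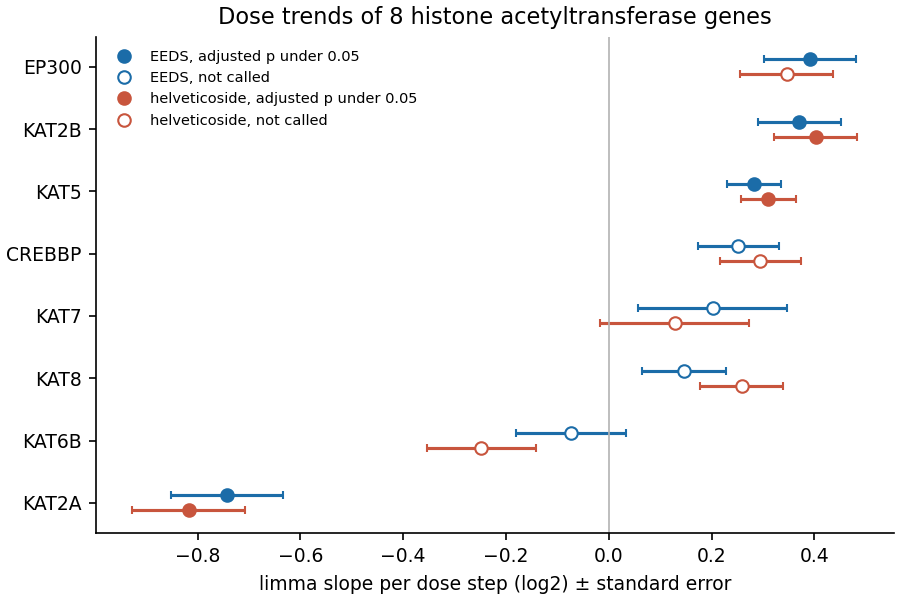
Limma slope of the log2 level per dose step, with its standard error, for 8 relatives of KAT14 and both agents, over 8 arrays. Filled circles have an adjusted p under 0.05. KAT2A stands alone on the left at -0.74 and -0.82. The open circles, those of CREBBP, KAT8, KAT7, KAT6B and EP300 with helveticoside, run from -0.25 to 0.35. They overlap the filled circles of KAT5 at 0.28 and 0.31.

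Genes that encode partners of these enzymes were taken from lists of 72 names, of which 69 were measured. EEDS raised 9 and lowered 3 of them (17.4% called, against 15.1% of all genes), and helveticoside raised 6 and lowered 2 (11.6%, against 11.3%), so the shares were near those of all genes. The 8 called with helveticoside were called with EEDS too, in the same direction. Under the 8 other ways of processing with dose as steps, 8 of the 12 calls with EEDS and 4 of the 8 with helveticoside were kept throughout, and with dose as a share of the top dose 4 of the 12 and 0 of the 8 were (limma). On that scale 13 partner genes were called with EEDS and 3 with helveticoside, most of them not called with dose as steps. The median log2 ratio at the top dose was 0.38 with EEDS and 0.29 with helveticoside.

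The enzymes of ATAC are not counted here, and KAT2A fell with both agents, as given above. In ATAC, the complex of KAT14, 1 of 11 partner genes rose with either agent and none fell (9.09%, against 15.1% and 11.3% of all genes). It was DR1, a histone-fold subunit that is also a general repressor of transcription, with log2 levels of 10.51, 11.10, 11.81 and 12.18 over the EEDS series and 10.20, 10.84, 11.40 and 11.89 over the helveticoside series. Every dose stood above the one before it (slopes 0.57 ± 0.05 and 0.56 ± 0.05, limma, adjusted p = 0.0132 and 0.0165). SGF29, a reader of methylated histone H3 shared by ATAC and SAGA, had log2 ratios of -1.72 and -1.11 at the top doses and was not called (limma, adjusted p = 0.0657 and 0.189). With EEDS its fall was called under 5 of the 8 other ways of processing with dose as steps (limma, adjusted p of 0.0161 to 0.0656). With dose as a share of the top dose, its fall was called with both agents (limma, adjusted p = 0.0148 and 0.0432). CSRP2, the LIM protein after which KAT14 was once named CSRP2BP, had log2 ratios of -1.29 and -1.17 and was not called (limma, adjusted p = 0.132 and 0.114).

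In SAGA, 1 of 19 measured partner genes rose and 1 fell with EEDS (10.5%, against 15.1% of all genes). With helveticoside limma called 0, against 11.3% of all genes, and 2 had an unadjusted p under 0.05. TAF6L, a core subunit, fell with EEDS (log2 ratio -1.28 at the top dose, limma, adjusted p = 0.0310), and SF3B5, which SAGA shares with the splicing machinery, rose by a log2 ratio of 0.39 (limma, adjusted p = 0.0403), a call kept under 3 of the 8 other ways of processing (0.0389 to 0.363). With helveticoside they had log2 ratios of -0.92 and 0.15.

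In NuA4/TIP60, the complex of KAT5, 1 of 17 partner genes rose and 1 fell with either agent (11.8%, against 15.1% and 11.3% of all genes). DMAP1, a scaffold subunit that also binds DNA methyltransferase, fell from a log2 level of 9.10 in the EEDS control to 8.03, 7.82 and 7.67, and from 8.24 in the helveticoside control to 7.52, 6.84 and 6.13 (limma, adjusted p = 0.0462 and 0.0243). EPC1, the subunit that anchors the enzyme, rose by log2 ratios of 1.46 and 0.96 (limma, adjusted p = 0.0190 and 0.0498), the call with helveticoside being kept under 4 of the 8 other ways of processing (0.0319 to 0.0742). Of the settings that changed its values, only the signal as scanned kept that call. BRD8, a bromodomain subunit, was not called, at 1.21 and 0.61.

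Among 8 measured partners of the KAT6 and KAT7 enzymes, 2 rose with EEDS and 1 with helveticoside, and none fell. Of all genes, 15.1% were called with EEDS and 11.3% with helveticoside. ING5, which reads methylated histone H3, went from a log2 level of 8.86 to 9.82, 10.43 and 10.50 over the EEDS doses and from 8.29 to 8.84, 9.71 and 10.11 over the helveticoside doses (limma, adjusted p = 0.0275 and 0.0261). BRPF3, a scaffold that directs KAT7, had log2 ratios of 1.85 and 1.68 at the top doses and passed the test with EEDS alone (limma, adjusted p = 0.0495 and 0.0651), which does not show that the agents differed.

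Of 10 measured genes of the MSL and NSL complexes, where KAT8 works, 2 rose and 1 fell with EEDS. With helveticoside 1 rose and 1 fell. The shares called were 30.0% and 20.0%, against 15.1% and 11.3% of all genes. PHF20 rose by 0.85 and 1.02 (limma, adjusted p = 0.0371 and 0.0253), with its EEDS call kept under 4 of the 8, and MCRS1 fell by 0.99 and 0.99 on the log2 scale (limma, adjusted p = 0.0247 and 0.0330). MSL2, the ubiquitin ligase of the MSL complex, rose with EEDS by 1.53 (limma, adjusted p = 0.0412) and stood at 1.26 with helveticoside (limma, adjusted p = 0.0764). MSL1 and KANSL1, both scaffolds, and the glycosyltransferase OGT were at least 2-fold from control at a top dose without being called. KANSL1 with EEDS was called under 5 of the 8 other ways of processing with dose as steps (limma, adjusted p of 0.0373 to 0.0956).

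Of 10 cofactors of EP300 and CREBBP, 2 rose with both agents and none fell (20.0%, against 15.1% and 11.3% of all genes). CITED4, which binds these coactivators, rose by log2 ratios of 1.06 and 1.57 (limma, adjusted p = 0.0342 and 0.0209), and CRTC2, a coactivator of CREB, by slopes of 0.32 and 0.27 per dose step (limma, adjusted p = 0.0231 and 0.0392). CRTC1 stood at 0.39 and 1.03 and was not called.

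**Figure D4:**
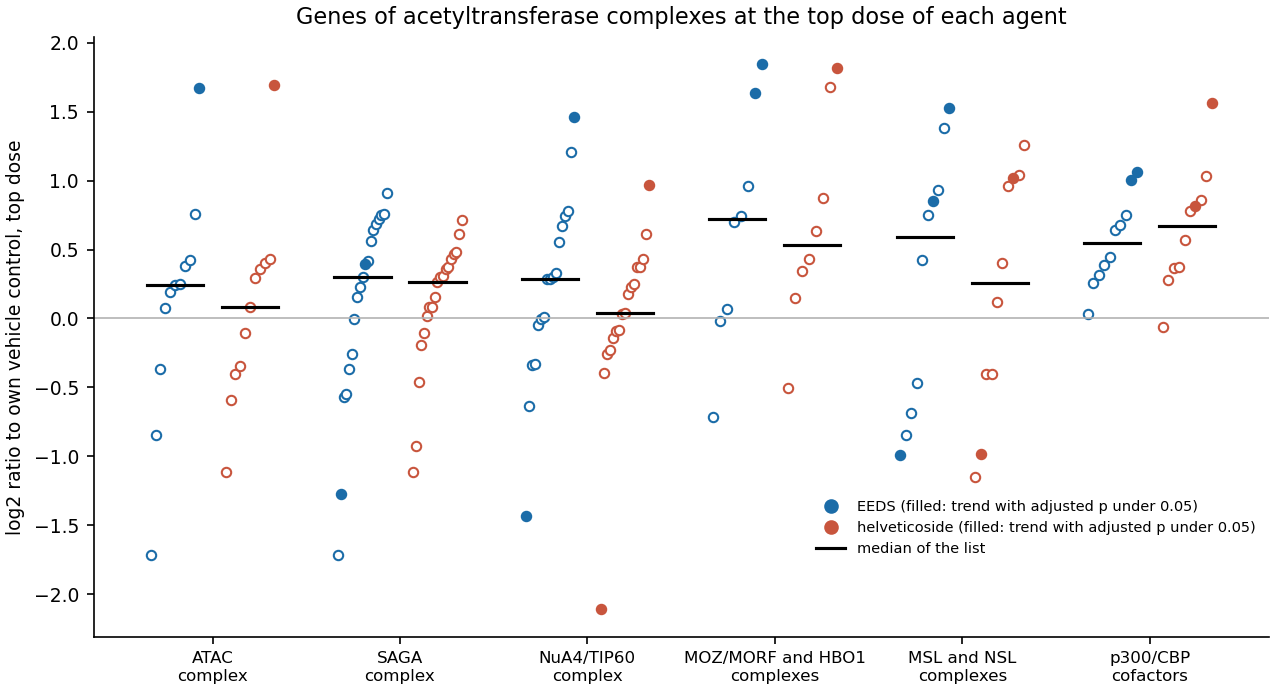
Log2 ratio to the vehicle control at 20 ug/mL EEDS and 60 nM helveticoside (vertical axis) for each measured gene of 6 lists of acetyltransferase partners, 1 array per dose. Filled circles are genes whose dose trend had an adjusted p under 0.05 and black lines the medians of the lists, which run from 0.04 for NuA4/TIP60 with helveticoside to 0.72 for the MOZ/MORF and HBO1 partners with EEDS. No partner comes near the KAT14 values of -6.30 and -5.18.

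Among 12 further acetyltransferases, limma called 0 with helveticoside, against 11.3% of all genes (2 of the 12 had an unadjusted p under 0.05). With EEDS 1 was called (8.33%), against 15.1% of all genes. It was NAA40, which acetylates the amino end of histones, with a log2 ratio of -0.43 (limma, adjusted p = 0.0262), but its probe was among the brightest of the arrays, where quantile normalization leaves little room for change and gave the same level of 19.16 on all 4 helveticoside arrays. HAT1 and ESCO1 had log2 ratios of 1.10 and 1.63 with EEDS and were not called, and ESCO1 was not well above background on any helveticoside array. None of the 4 genes of acetyl-CoA supply was called for either agent (limma; 2 had an unadjusted p under 0.05 with EEDS and 0 with helveticoside), with ACLY, which makes acetyl-CoA from citrate, at -1.21 and -0.54 and ACSS1 at -1.05 and -0.37. BRD3, a BET protein that reads acetylated lysines, fell with EEDS (log2 ratio -0.98, limma, adjusted p = 0.0269) and stood at -0.71 with helveticoside (limma, adjusted p = 0.0536).

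Of the 5 measured genes on each side of KAT14 in the RefSeq order, where 15.1% of all genes were called with EEDS and 11.3% with helveticoside, RBBP9, a serine hydrolase that binds the retinoblastoma protein, was the only one called. Its log2 level was 9.98, 9.20, 8.07 and 7.29 over the EEDS series and 9.72, 9.34, 8.10 and 6.12 over the helveticoside series. The slopes were -0.92 ± 0.16 and -1.21 ± 0.16 (limma, adjusted p = 0.0248 and 0.0200). ZNF133, the nearest measured gene on one side, had log2 ratios of -1.19 and -0.94 at the top doses and missed the threshold (limma, adjusted p = 0.0508 and 0.0907). BANF2 and OVOL2 were not well above background on any array, and SNX5, SNORD17, MGME1, DZANK1, POLR3F and SEC23B lay between -0.55 and 0.76.

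**Figure D5:**
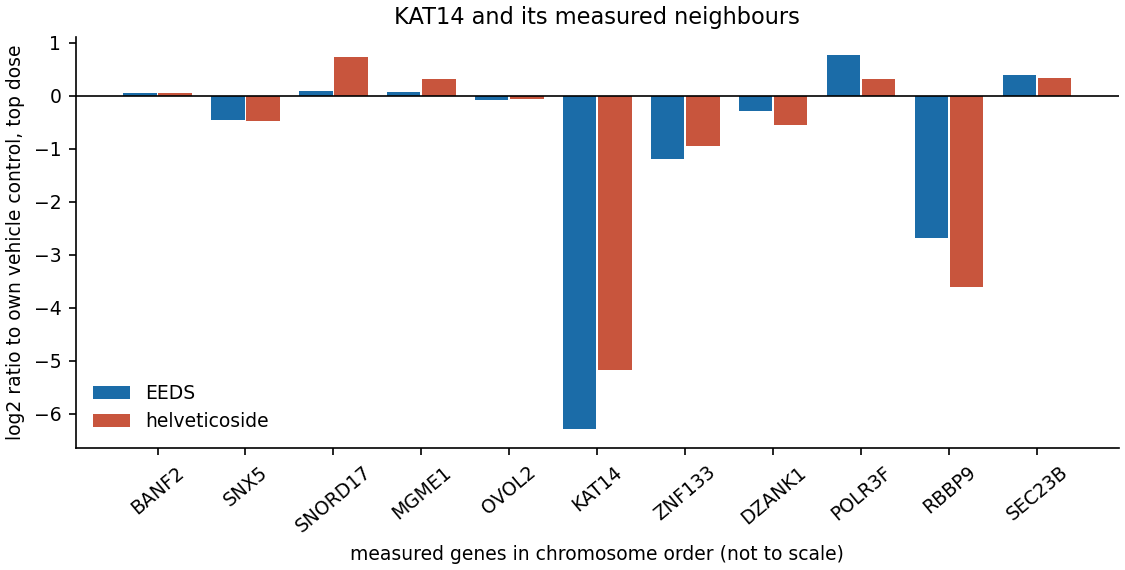
Log2 ratio to the vehicle control at the top dose of each agent (vertical axis) for KAT14 and the 5 measured genes on each side of it, in chromosome order and not to scale, 1 array per bar. KAT14 reaches -6.30 and -5.18, RBBP9 reaches -2.69 and -3.60, and BANF2 and OVOL2 were below the scanner's background call.

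The genes whose course was most like that of KAT14 were sought over the 6 log2 ratios, by Euclidean distance, among 11515 other genes well above background on all arrays. They were RIMBP3 (distance 1.72), SCARA5 (2.44), BCAS1 (2.44), HOXB13 (2.49) and EEF2K (2.61). RIMBP3 had log2 ratios of -2.06, -2.82 and -5.09 over the EEDS doses and -1.76, -2.18 and -4.29 over the helveticoside doses, so it stood lower than KAT14 at the lowest dose of each agent and higher at the others. SCARA5 and HOXB13 had ratios of 0.09 and 0.09 at 3.75 nM helveticoside, where KAT14 was already at -1.43. The Pearson r of their log2 levels with KAT14 over the 8 arrays was 0.95 to 0.98, a description over arrays that share controls and an order of doses. EEF2K, a kinase that slows the elongation step of translation, was lower at each dose than at the one before, with -1.59, -2.51 and -4.50 over the EEDS doses and -1.27, -2.35 and -3.39 over the helveticoside doses, and stood above KAT14 at the top dose of each.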

How the data were processed

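RNA of A549 cells was hybridised to 8 one-colour Agilent arrays. The authors deposited each array's scanner output, whose processed signal is a background-subtracted intensity, and a table of their own filtered, quantile-normalized intensity values. No batch beyond the series was used.

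Here outlier and control spots were dropped, the spots of a probe averaged, and the processed intensities of 34127 probes quantile-normalized over 8 arrays and taken to log2. Values under 1.4 times local background were raised to the array's lowest detected value. Probes were named by transcript accession through RefSeq (24812 probes, 19056 genes), and a gene was read from its brightest probe. The 19046 genes that reached 1.4 times local background on any array of each series were kept. That limit is loose, as 11516 genes were well above background on all arrays. limma 3.58.1 (R 4.3.3) fitted an intercept and a slope per dose step for each series, with trend and robust estimation and 4 residual degrees of freedom, adjusted by Benjamini-Hochberg over all genes at 0.05. The spread is that around a straight line over single arrays of pooled RNA, since no dose was replicated. The script was tested on simulated data.

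The members, lists and motifs were chosen with earlier results of these data known. Named were the members, listed genes called or at least 2-fold from control at a top dose, 5 genes nearest to KAT14 in pattern, 5 neighbours on each side and the next genes in rank. Some listed genes are not reported here. Alternatives were the signal as scanned, normexp with an offset of 50, scaling by the 75th percentile, quantile normalization within series, the authors' values, the mean over probes, other filters, another dose scale, the other control and fewer arrays.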

Additional observations from a re-analysis of the deposited data

How the results depend on the processing

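KAT14 stayed below control under every alternative run. Its log2 ratio at the top dose of EEDS was -4.84 with the signal as scanned, -4.89 with normexp, -6.75 with scaling by the 75th percentile, -6.61 with quantile normalization within series, -6.16 with the authors' values and -6.10 against the other control. With helveticoside these were -4.27, -4.29, -4.93, -4.89, -3.90 and -5.37. The 75th percentile scaling moved the median of all genes by -0.36 and -0.18. Of the relatives, 1 was called with EEDS when dose entered as a share of the top dose. With helveticoside 0 were called in that way, 1 with the authors' values and 5 among probes well above background on all arrays. The helveticoside count of partner genes was 4 with the authors' values and 3 with dose as a share, where the EEDS count was 13. The cause was not tested. When each series was fitted alone, or the lowest, middle or top dose was dropped, all 4 counts were 0, as was the count over all genes, with fewer arrays in the fit. KAT2A was called with both agents under all 8 settings that kept every array and the dose steps, KAT5 with helveticoside under 4, KAT2B under 6 and EP300 under 1. Of the other genes called, DMAP1, NAA40 and BRPF3 with EEDS lost the call over all probes, and DMAP1, MCRS1 and CRTC2 with helveticoside under the authors' values. Some genes not called above gained a call instead, such as SGF29 and KANSL1 with EEDS under 5 of the 8 settings. By dose share, SGF29 (limma, adjusted p = 0.0432), KANSL1 (0.0339) and MSL2 (0.0316) were called with helveticoside. Slopes not called reversed for KAT6B with EEDS (0.0316) and KAT7 (-0.107 and -0.0905) without the top dose, HAT1 with helveticoside without it (-0.198), CRTC1 with EEDS (-0.0469 over all probes, -0.230 by dose share) and ESCO1 with helveticoside (0.0612 as scanned, 0.0556 with normexp, 0.0476 with the authors' values). No paired analysis was possible because each group holds 1 array. Dim spots limit the KAT14 values at the top doses, and 1 array per dose limits every other value.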
